A study of Mus musculus with 6 samples.

Results

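The 37 genes described here encode the contractile and actin cytoskeleton proteins that are known or proposed targets of serum response factor (SRF), together with SRF and its coactivators. They were listed by name, with no measured value in the rule, and were followed in differentiated mouse fat cells of the inguinal depot, the white fat of the groin. The compared groups were cells given 1 uM rosiglitazone for 4 days and control cells (3 arrays in each group). Rosiglitazone is a thiazolidinedione that activates the nuclear receptor PPARγ, and the labels call the treated cells beiging and the controls non-activated. The labels give no strain, sex, age or genotype of the mice, name no vehicle and do not tell whether the arrays of a group stand for independent cultures. The p-values therefore cover only the variation among these arrays, part or all of which may be technical. Of the 37 genes, 35 were found under the listed symbol and Mkl1 and Mkl2 under their present symbols Mrtfa and Mrtfb. Among the 12952 genes that could be tested on the array were 36 of the 37, the exception being the coactivator gene Myocd, whose brightest probe set lay just under the filter on low values. Array medians were 44.46 to 45.56 with rosiglitazone and 45.65 to 46.66 in control cells, so overall brightness was close. The drug response was present: Cidea, a lipid droplet gene abundant in brown fat, had intensities of 4449, 4698 and 4685 with rosiglitazone against 58.5, 54.0 and 45.9 in control cells. Of 10 fat cell markers 9 were tested, and their changes are given with those of other cell types. Plin1 was left out because no probe set carries its symbol alone. The response was broad: 59.4% of all genes tested were called, 35.8% lower and 23.6% higher, at an adjusted p under 0.05 (limma, Benjamini-Hochberg over all genes), so a call alone says little about these genes and the size of a change matters more.

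SRF binds a short DNA element, the CArG box, which has a run of A and T between a pair of C and a pair of G. Its coactivators MRTF-A and MRTF-B, encoded by Mrtfa and Mrtfb, bind monomeric actin in the cytoplasm and reach the nucleus when actin is built into filaments, so the state of the cytoskeleton sets the transcription of its own genes. Myocardin, encoded by Myocd, is the coactivator of smooth muscle and heart, while the ternary complex factors direct SRF to immediate early genes. In mouse fat cell precursors, the loss of actin stress fibres and of nuclear MRTF is known to accompany differentiation into rounded fat cells. The genes were placed in 5 groups by role: smooth muscle forms, genes that give both smooth muscle and general splice forms, general actomyosin, adhesion and LIM domain proteins, and SRF with its coactivators. The placement was by gene, and genes with splice forms of both kinds are not confined to the group so named.

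Promoter windows of 250 bases before to 50 bases after a gene start, from RefSeq on GRCm38.p6, were at hand for 32 of the 37 genes. Windows of Actg2, Actb, Tagln, Myh11 and Myocd were not used here. A strict CArG box, searched in a way that covers both strands because the element is its own reverse complement, was in a window of 8 of these 32 genes (25%), against 488 of 27025 genes of the whole table (1.81%). The 8 genes were Myl9 among the smooth muscle forms, Actg1, Cnn2 and Myl6 in general actomyosin, Fhl1, Fhl2 and Vcl among the adhesion and LIM genes, and Srf itself. A looser element, in which exactly 1 letter of the A and T run is G or C, added Acta2, Tpm3 and Mrtfa and brought the count to 11 of 32, against 11.3% of all genes. Because the genes were listed as known or proposed SRF targets, neither comparison with all genes is an independent test. Shown here are 5 windows, chosen to show where the elements lie in genes whose response differed widely in size, with the elements in capitals (strict in Myl9, Actg1, Fhl2 and Srf, looser in Acta2, and Myl9 has 1 of each).
Acta2, chr19:34255324-34255623, minus strand: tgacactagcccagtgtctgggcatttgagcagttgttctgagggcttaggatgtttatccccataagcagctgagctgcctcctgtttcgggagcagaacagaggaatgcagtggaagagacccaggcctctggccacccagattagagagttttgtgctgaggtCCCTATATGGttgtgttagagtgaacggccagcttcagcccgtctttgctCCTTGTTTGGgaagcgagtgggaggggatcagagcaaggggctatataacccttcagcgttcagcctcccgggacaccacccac
Myl9, chr2:156775214-156775513, plus strand: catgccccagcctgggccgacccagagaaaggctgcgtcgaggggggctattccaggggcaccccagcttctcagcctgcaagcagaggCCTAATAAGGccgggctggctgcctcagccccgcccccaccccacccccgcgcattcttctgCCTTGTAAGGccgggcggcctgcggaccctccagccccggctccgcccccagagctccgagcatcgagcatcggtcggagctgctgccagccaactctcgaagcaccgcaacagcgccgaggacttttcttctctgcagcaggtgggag
Actg1, chr11:120348446-120348745, minus strand: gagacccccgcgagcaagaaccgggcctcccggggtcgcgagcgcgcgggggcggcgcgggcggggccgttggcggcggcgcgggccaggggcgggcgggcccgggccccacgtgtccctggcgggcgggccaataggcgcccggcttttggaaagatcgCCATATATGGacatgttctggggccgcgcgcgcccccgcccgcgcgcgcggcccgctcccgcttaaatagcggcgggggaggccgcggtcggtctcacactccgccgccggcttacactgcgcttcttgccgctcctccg
Fhl2, chr1:43163912-43164211, minus strand: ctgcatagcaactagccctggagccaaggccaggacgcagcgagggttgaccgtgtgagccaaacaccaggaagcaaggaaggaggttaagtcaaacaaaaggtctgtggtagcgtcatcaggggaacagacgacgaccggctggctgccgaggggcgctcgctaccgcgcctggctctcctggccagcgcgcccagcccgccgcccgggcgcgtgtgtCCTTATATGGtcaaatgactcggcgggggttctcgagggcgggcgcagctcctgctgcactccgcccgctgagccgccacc
Srf, chr17:46556113-46556412, minus strand: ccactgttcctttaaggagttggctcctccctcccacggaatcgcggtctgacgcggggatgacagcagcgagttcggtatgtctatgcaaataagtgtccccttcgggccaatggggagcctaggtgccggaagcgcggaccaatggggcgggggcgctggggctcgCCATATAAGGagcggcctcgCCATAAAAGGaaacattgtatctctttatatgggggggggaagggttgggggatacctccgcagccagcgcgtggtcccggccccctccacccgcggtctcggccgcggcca
The 2 looser elements of Acta2 began 84 and 34 bases before the gene start, the strict element of Myl9 at 161 bases and that of Actg1 at 90 bases. Fhl2 has a second window with its own strict element, and Srf has 2, at 82 and 62 bases. These are matches of letters alone, with no measurement of binding. Of the 8 genes with a strict element, all but Fhl1, which rose and holds CCTAAAATGG, were called lower, as were most genes here. Several genes with large falls described below, such as Mylk, Smtn and Cnn3, hold neither form in these windows, and sequence outside the windows was not searched. A link of the elements to the changes was not tested.

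Smooth muscle forms were lower with rosiglitazone with a single exception. Of the 11 genes, 10 fell and 1 rose, where 35.8% of all genes tested were called lower. The median log2 change of the 11 was -1.18, against -0.05 for all genes tested. Falls of at least 2-fold were called in 8 of the 11, against 4.62% of all genes (6 of the 11 after quantile normalization or median centring). Cnn1 and Smtn are among these 8, and their treated means lay under the filter on low values (27.3), so that both were tested only because of their control arrays and a difference was built into their selection. Without these 2 genes, 8 of 9 fell, 6 of 9 by at least 2-fold, with a median of -1.08. In every gene of the 11 the 3 treated arrays lay entirely on 1 side of the 3 control arrays, lower in 10 and higher in 1, where 38.3% of all genes tested lay entirely lower. In bulk samples such as these, fewer cells of a type and less RNA per cell cannot be told apart.

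Myh11 encodes the heavy chain of smooth muscle myosin, a protein that marks mature smooth muscle. Its intensities were 126.2, 120.1 and 124.1 in treated cells, against 525.7, 501.3 and 419.6 in control cells. All treated arrays were near the same low value, while control array 3 was the lowest of its group. The log2 change was -1.96 (SE 0.08, adjusted p = 3.3e-12), a 3.89-fold fall and the largest among the 36 genes. Actg2, the actin of gut and other visceral smooth muscle, had 59.5, 53.6 and 53.4 in treated cells and 160.3, 174.3 and 144.8 in control cells, with no overlap of the groups (log2 change -1.52, SE 0.11, adjusted p = 3.6e-09). Mylk, the kinase that switches on smooth muscle myosin by phosphorylating its light chain, had 534.7, 521.9 and 520.1 in treated cells, against 1319, 1311 and 1440 in control cells (log2 change -1.37, SE 0.05, adjusted p = 3.6e-13). Its next brightest probe set gave -1.43, whereas the dimmest, at a mean intensity of 149.4, gave 0.01 and was not called. Thus the probe sets of Mylk did not all report the fall, and the transcripts that each of them reads were not examined.

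Myl9, the regulatory light chain on which that kinase acts, fell to 396.2, 367.9 and 366.2 in treated cells, against 832.3, 880.0 and 849.7 in control cells (log2 change -1.18, SE 0.05, adjusted p = 5.0e-12). Tagln, which encodes the actin-binding protein SM22α, had 956.4, 935.9 and 929.8 in treated cells and 1990, 2131 and 1839 in control cells (log2 change -1.08, SE 0.05, adjusted p = 7.5e-12). In both genes the treated arrays were under every control array by a wide margin. Tpm2, the β-tropomyosin of muscle and fibroblasts, had 725.5, 730.9 and 732.9 in treated cells, against 1565, 1430 and 1507 in control cells (log2 change -1.04, SE 0.04, adjusted p = 2.8e-12), and 3 of its 4 kept probe sets were called lower. Acta2, the α-actin of vascular smooth muscle and the usual mark of myofibroblasts, had 3347, 3338 and 3461 in treated cells and 5447, 5547 and 5469 in control cells, which do not overlap. Its log2 change of -0.70 (SE 0.03, adjusted p = 1.9e-12), a 1.62-fold fall, was smaller than those of Tagln, Myl9 and Mylk. The probe sets of Acta2, Actg1, Cald1, Myh9 and Srf, and those of Cnn3 and Pdlim7, carry suffixes that the maker uses where probes can match more than 1 transcript or sequence. Signal from a related gene, above all among the near-identical actins, cannot be told apart in them; the other 2 Acta2 probe sets were too dim to test.

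Among the dim smooth muscle genes, Cnn1, the calponin of smooth muscle, had 21.0, 15.9 and 23.0 in treated cells, against 58.8, 56.2 and 62.0 in control cells. Treated array 2 lay just under the floor of 16 that was applied to all values. The log2 change was -1.58 (SE 0.21, adjusted p = 5.8e-06), or -1.53 with 1 added to each value in place of the floor. Smtn, which encodes smoothelin, a protein of contractile smooth muscle, had 16.4, 20.4 and 19.1 in treated cells and 47.0, 44.7 and 51.7 in control cells (log2 change -1.36, SE 0.22, adjusted p = 4.6e-05). In both genes each treated array lay under each control array, but the control values of Smtn were close to the median of all probe sets, so the sizes of these changes are uncertain. Lmod1, a leiomodin that nucleates actin filaments in smooth muscle, had 33.9, 22.5 and 35.8 in treated cells and 45.5, 45.6 and 42.1 in control cells. The groups were apart, with treated array 2 the lowest, and the log2 change was -0.56 (SE 0.21, adjusted p = 0.0322). The call was lost without treated array 2 (-0.35) and without control array 1, 2 or 3 (-0.54, -0.54 and -0.60). Des, which encodes the intermediate filament protein desmin, ran the other way, with 169.1, 175.3 and 159.4 in treated cells and 134.6, 145.9 and 156.2 in control cells. The gap between the groups was narrow, the log2 change was 0.21 (SE 0.08, adjusted p = 0.0405), and the call was lost when control array 1 or 2 or treated array 1 or 2 was left out (log2 change 0.15, 0.21, 0.20 and 0.18). The change was 0.31 after quantile normalization and 0.33 after median centring, both called. Over 18 alternatives the call of Des held in 10.

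**Figure D1:**
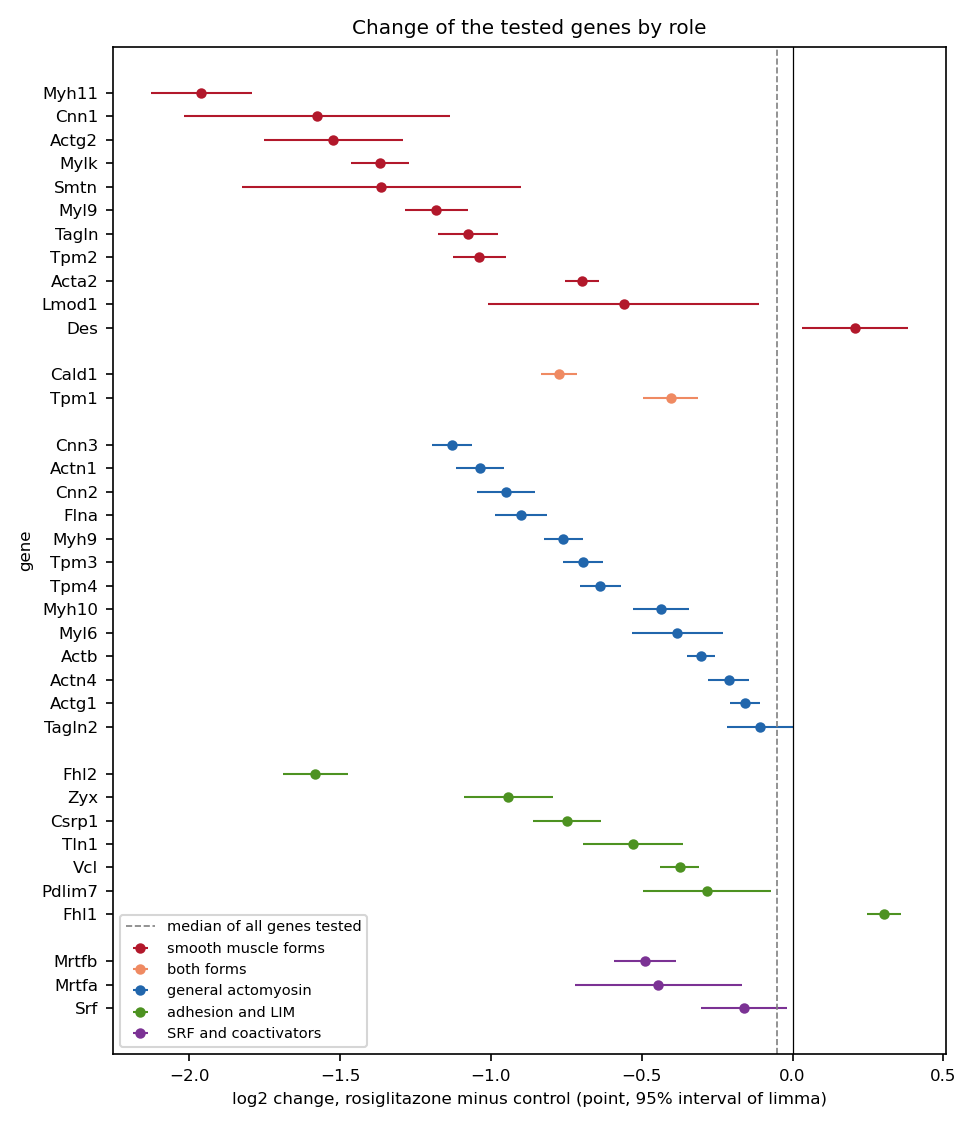
Log2 change of each of the 36 tested genes, rosiglitazone minus control (x axis), by role (y axis, genes ordered within a role). Points are limma estimates from 3 treated and 3 control arrays, bars are 95% intervals, and the dashed line is the median of all 12952 genes tested (-0.05). Smooth muscle forms reach -1.96 in Myh11, while Des and Fhl1 lie above 0.

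Both genes placed in the group with smooth muscle as well as general splice forms fell. Cald1, whose product caldesmon binds actin and myosin, had 3659, 3759 and 3888 in treated cells and 6369, 6490 and 6485 in control cells (log2 change -0.78, SE 0.03, adjusted p = 9.2e-13), and its 4 kept probe sets were all called lower, by -0.60 to -1.01. Tpm1, α-tropomyosin, had 708.3, 682.7 and 676.3 in treated cells, against 918.5, 933.9 and 884.2 in control cells (log2 change -0.40, SE 0.04, adjusted p = 4.6e-07), and its second kept probe set gave -0.41. Both treated groups lay wholly under their controls, and the arrays do not separate the splice forms. Tpm2 and Mylk, counted with the smooth muscle forms, were not separated by splice form either.

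General actomyosin genes were also lower, over a wide range. Of the 13 genes, 12 fell and 1, Tagln2, was not called, where 35.8% of all genes tested were called lower. The median log2 change was -0.64. Falls of at least 2-fold were called in 2 of the 13, Cnn3 and Actn1, against 4.62% of all genes (1 of the 13 after quantile normalization or median centring), and falls of at least 1.5-fold in 7 of the 13, against 12.3% of all genes. Cnn3, the acidic calponin of non-muscle cells, had 1541, 1620 and 1605 in treated cells and 3440, 3464 and 3514 in control cells. Its log2 change was -1.13 (SE 0.03, adjusted p = 4.8e-14), and each of its 6 kept probe sets was called lower, by -1.05 to -1.39. Actn1, an α-actinin that crosslinks actin in stress fibres, had 1110, 1121 and 1109 in treated cells, against 2266, 2390 and 2201 in control cells (log2 change -1.04, SE 0.04, adjusted p = 8.1e-13). Its dimmest kept probe set, at a mean intensity of 79.4, gave 0.28 and was not called, and the mean of its probe sets gave -0.55. Actn4, the paralog of Actn1, changed much less, with 2169, 2224 and 2190 in treated cells and 2590, 2566 and 2468 in control cells (log2 change -0.21, SE 0.03, adjusted p = 2.4e-05, and -0.089 after median centring).

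The non-muscle actin crosslinkers and motors lay between these. Cnn2, the calponin of many cell types, had 600.9, 646.6 and 666.8 in treated cells and 1232, 1209 and 1257 in control cells (log2 change -0.95, SE 0.05). Flna, which encodes the filamin that joins actin filaments into networks, had 704.2, 673.2 and 700.4 in treated cells, against 1323, 1295 and 1262 in control cells (log2 change -0.90, SE 0.04). No treated array of either gene reached the lowest control array. Of the non-muscle myosin heavy chains, Myh9 and Myh10 had log2 changes of -0.76 and -0.43 (SE 0.03 and 0.04). The essential light chain Myl6, used by both smooth muscle and non-muscle myosin, changed by -0.38 (SE 0.07), and the tropomyosins Tpm3 and Tpm4 by -0.69 and -0.64 (SE 0.03 each). Adjusted p-values of these 7 genes ranged from 2.2e-04 for Myl6 to 2.8e-12 for Myh9, and in each the 2 groups of arrays did not overlap.

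The cytoplasmic actins were among the genes of this group with small changes. Actb, the β-actin often used to normalise expression, had 8700, 8687 and 8706 in treated cells and 10715, 10800 and 10691 in control cells, a log2 change of -0.30 (SE 0.02, adjusted p = 2.7e-09). Actg1, the γ-actin, had 8531, 8744 and 8854 in treated cells, against 9835, 9690 and 9628 in control cells, a log2 change of -0.16 (SE 0.02, adjusted p = 1.9e-05). Both were lower in each treated array than in any control array, but the fall of Actg1 depended on the scaling of the arrays: after each array was centred on its median, which raised the median change of all genes by 0.12, it was -0.04 and not called, and Actb was at -0.18. Tagln2, the transgelin of non-muscle cells, had 591.8, 642.8 and 597.2 in treated cells and 685.3, 666.8 and 621.6 in control cells. Those groups overlap, and the log2 change of -0.11 (95% interval -0.22 to 0.00, adjusted p = 0.0847) did not pass the test. Its direction depended on the scaling, with -0.01 after quantile normalization and 0.02 after median centring, neither called, and without control array 3 or treated array 2 it was called lower (-0.15 and -0.14).

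Array control probe sets add to the picture of Actb, since they read the 3′ end, the middle and the 5′ end of its transcript. The 3′ set had 9151, 9292 and 9414 in treated cells, against 11222, 11184 and 11376 in control cells, a log2 difference of -0.28. The 5′ set had 3996, 3758 and 3655 in treated cells, against 6082, 6194 and 6499 in control cells, a difference of -0.72, and the middle set lay between at -0.43. The size of the difference in Actb thus ranged from -0.22 to -0.72 over 5 probe sets of 1 transcript, all of them lower. The 3′ to 5′ ratio of Actb, a sign of RNA quality, was 2.29, 2.47 and 2.58 in treated cells and 1.85, 1.81 and 1.75 in control cells, higher in every treated array. The same ratio for Gapdh was 0.984, 1.04 and 1.10 in treated cells and 1.12, 1.07 and 1.05 in control cells, which overlap. The part of RNA quality in the change of Actb, or of the other genes described here, was not tested.

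**Figure D2:**
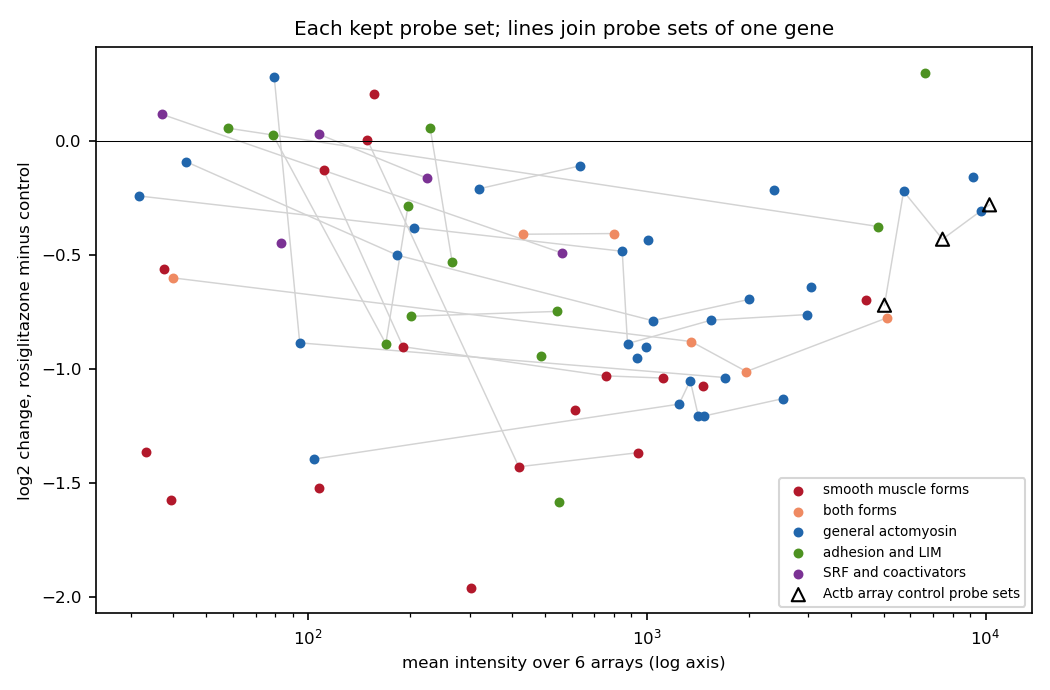
Log2 change, rosiglitazone minus control (y axis), against mean intensity over 6 arrays on a log axis (x axis) for each probe set of the genes that passed the filter on low values, coloured by role, with grey lines joining the probe sets of a gene. Open triangles are the 3 array control probe sets of Actb, which run from -0.28 to -0.72. Dimmer probe sets of Actn1, Mrtfb, Tln1, Vcl, Mylk, Pdlim7 and Srf lie near or above 0 while the brightest set of each gene lies below it.

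Within protein families, on the brightest probe sets, the listed smooth muscle form fell more than the other gene in each pair without Tpm1. Tpm1 was placed with the genes of both splice forms, so its pairs do not set a smooth muscle form against a general one. The comparison took 14 pairs and the log2 ratio of the 2 genes in each array, which removes the scaling of the array. Myl9 and Myl6 are a regulatory and an essential light chain, so their pair does not set a smooth muscle form against its general counterpart. It is kept in the counts. The treated ratios lay wholly below the control ratios in 12 pairs and wholly above in 2. For Myh11 relative to Myh10 the log2 ratio was -2.76, -2.79 and -2.83 in treated cells and -1.16, -1.13 and -1.51 in control cells, a difference of changes of -1.53 (SE 0.12), and relative to Myh9 the difference was -1.20 (SE 0.09). Ratios within an array compare changes only, because levels of different probe sets cannot be set against each other. Actg2 relative to Actb and to Actg1 differed by -1.22 (SE 0.09) and -1.36 (SE 0.10), whereas Acta2 differed from them by -0.39 and -0.54 (SE 0.02 each). On its 5′ control probe set Actb changed by -0.72, against -0.70 for Acta2, while each other Actb set changed less than Acta2. Tagln relative to Tagln2 differed by -0.97 (SE 0.06), and its ratio was 0.69, 0.54 and 0.64 in treated cells, against 1.54, 1.68 and 1.57 in control cells. Myl9 relative to Myl6 differed by -0.80 (SE 0.09).

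Smaller differences were found for the calponins and tropomyosins. Cnn1 relative to Cnn2 differed by -0.63 (SE 0.16) and relative to Cnn3 by -0.45 (SE 0.17), with treated array 2, where Cnn1 was under the floor, far below the other 2 treated arrays. Without that array the differences were -0.46 and -0.28, and since Cnn1 was tested only because of its control arrays these sizes are uncertain. Leaving out both Cnn1 pairs, the treated ratios lay below in 10 of 12 pairs and above in 2. Tpm2 relative to Tpm3 and to Tpm4 differed by -0.35 (SE 0.03) and -0.40 (SE 0.04). Over 15 alternatives the difference from Tpm4 was -0.44 to -0.14. Tpm1 went against the rest: it fell less than Tpm3, by a difference of 0.29 (SE 0.03), and less than Tpm4, by 0.23 (SE 0.04). Each of the 14 differences had p = 0.1 in a two-sided exact permutation test over the 6 arrays (0.1 after Benjamini-Hochberg adjustment over the pairs), which is the smallest value that 3 against 3 arrays can give, so no pair can pass 0.05 by this test. Several pairs share a gene, and the pairs are not independent.

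**Figure D3:**
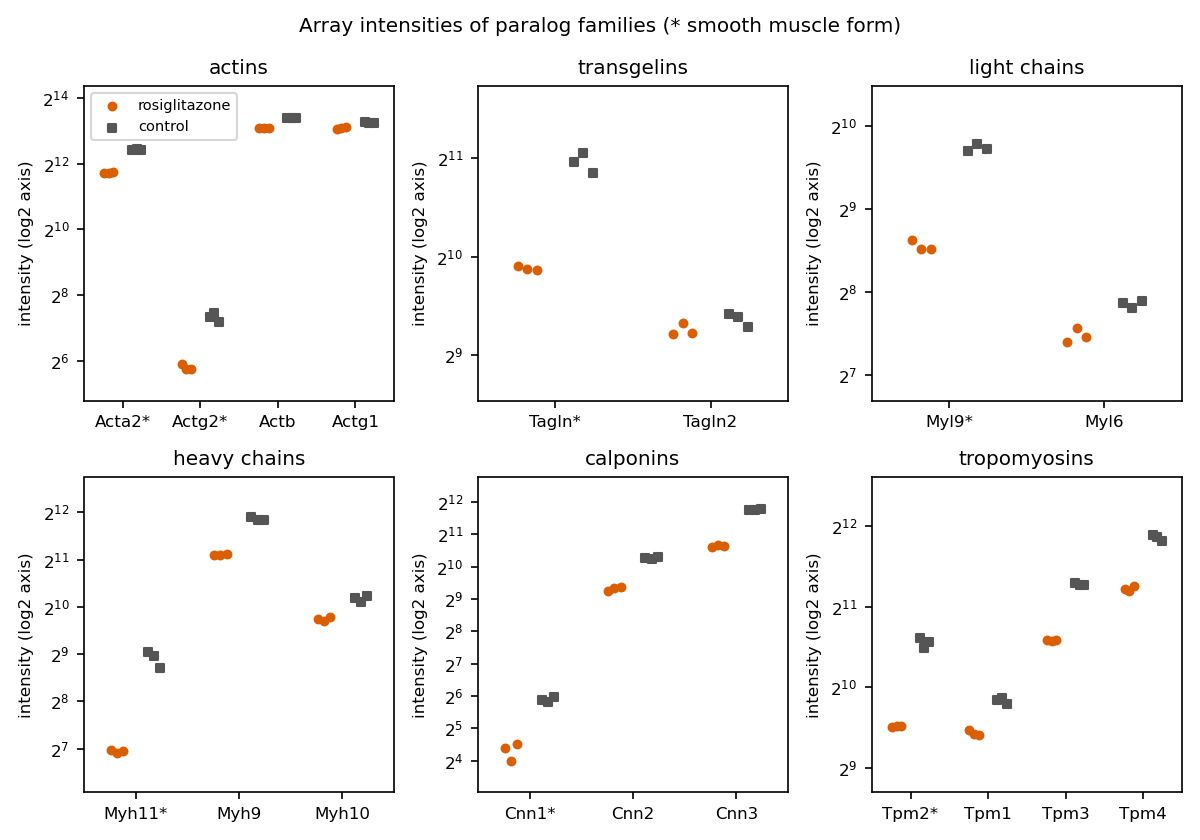
Intensity (y axis, log2 scale) of each gene of 6 protein families in the 3 rosiglitazone arrays (circles, left of each gene's tick) and the 3 control arrays (squares, right), with smooth muscle forms starred. The groups are apart for each gene shown except Tagln2.

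**Figure D4:**
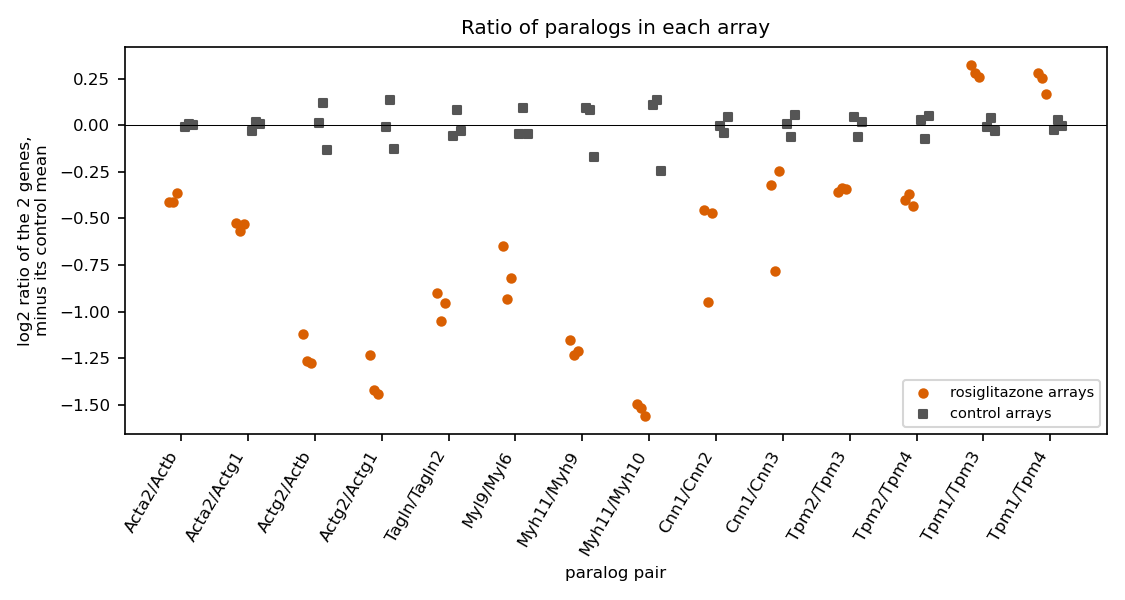
Log2 ratio of the 2 genes of a pair in each array after subtracting its mean in control arrays (y axis) for 14 pairs (x axis), with rosiglitazone arrays as circles and control arrays as squares. Treated arrays lie below the controls in 12 pairs and above them in both pairs with Tpm1.

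Genes of cell adhesion and of LIM domain proteins were mostly lower. Of the 7 genes, 6 fell and 1 rose, where 35.8% of all genes tested were called lower and 23.6% higher. The median log2 change was -0.53. Fhl2, a LIM-only cofactor that moves between adhesions and the nucleus, had 276.7, 278.4 and 269.7 in treated cells and 800.1, 808.4 and 861.4 in control cells, a 2.99-fold fall (log2 change -1.58, SE 0.05, adjusted p = 2.1e-13). Fhl1, its paralog in muscle, rose, with 7040, 7391 and 7459 in treated cells and 5931, 5890 and 5933 in control cells (log2 change 0.30, SE 0.03, adjusted p = 5.0e-08). These paralogs thus had opposite directions with no overlap of arrays in either, and Fhl1 stayed higher after median centring and after quantile normalization (0.42 and 0.21). Zyx, which encodes zyxin of focal adhesions and stress fibres, had 316.0, 332.6 and 353.0 in treated cells, against 671.7, 690.3 and 568.2 in control cells (log2 change -0.94, SE 0.07, adjusted p = 5.3e-09). Csrp1, a LIM protein abundant in smooth muscle, had 432.2, 393.8 and 391.0 in treated cells and 706.8, 667.7 and 665.8 in control cells (log2 change -0.75, SE 0.05, adjusted p = 3.6e-09).

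The remaining adhesion genes gave mixed readings across probe sets. Vcl, vinculin of cell adhesions, had 4038, 4201 and 4366 in treated cells and 5462, 5357 and 5502 in control cells (log2 change -0.37, SE 0.03, adjusted p = 1.8e-08), while its dim second probe set gave 0.06 and was not called, and the mean of its probe sets was -0.16. Tln1, talin, which links integrins to actin, had 201.3, 224.7 and 227.0 in treated cells, against 302.4, 351.5 and 290.1 in control cells (log2 change -0.53, SE 0.08, adjusted p = 2.0e-05). A second Tln1 probe set of similar brightness gave 0.06 and was not called, so the fall of Tln1 rests on 1 of 2 probe sets, and their mean was -0.24. For Pdlim7, a PDZ and LIM protein of actin bundles, the brightest probe set had 175.2, 183.2 and 172.7 in treated cells and 213.1, 257.2 and 182.1 in control cells. Treated array 2 lay above control array 3, and the log2 change was -0.28 (SE 0.10, adjusted p = 0.0227), a call lost without control array 2 or treated array 1 or 3 (log2 change -0.15, -0.28 and -0.26). The next Pdlim7 probe set gave -0.89 and was called lower, whereas the dimmest, at a mean intensity of 78.8, gave 0.03 and was not called.

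Of SRF and its 3 coactivators, Mrtfa and Mrtfb fell by less than 1.5-fold on their brightest probe set, Srf was at the edge of the threshold and Myocd could not be tested. Srf had 204.7, 217.9 and 212.8 in treated cells and 224.3, 244.2 and 242.4 in control cells. The groups were narrowly apart and the log2 change of -0.16 (SE 0.07, adjusted p = 0.0480) was at the edge of the threshold. It was not called without control array 2 or 3 or any of the treated arrays (log2 changes of -0.18 to -0.14), nor after quantile normalization or median centring (-0.04 each), and the second Srf probe set gave 0.03. Mrtfb had 472.8, 461.0 and 467.1 in treated cells, against 681.8, 623.6 and 663.1 in control cells (log2 change -0.49, SE 0.05, adjusted p = 2.3e-07), but its dim second probe set gave 0.12, and the mean of its probe sets gave -0.19 and was not called. Mrtfa had 84.1, 61.9 and 66.1 in treated cells and 101.7, 96.9 and 88.0 in control cells (log2 change -0.45, SE 0.13, adjusted p = 0.0076), a call lost with no filter on low values (adjusted p = 0.0717). Both coactivators had every treated array below every control array. Myocd was near background in all arrays, with 25.7, 29.3 and 21.1 in treated cells and 32.2, 25.7 and 24.4 in control cells, and was too dim to test.

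Over all roles, 33 of the 36 tested genes fell and 2 rose, with a median log2 change of -0.70, and 11 fell by at least 2-fold (9, with a median of -0.67, without Cnn1 and Smtn). Of all genes tested, 35.8% were called lower, 23.6% higher and 4.62% at least 2-fold lower. After median centring 29 fell and 2 rose, against 25.4% of all genes called lower on that scale, and the median was -0.57. Of those genes that lost the call, Lmod1, Actg1, Pdlim7 and Srf had changes of -0.44, -0.04, -0.16 and -0.04. Falls of at least 2-fold numbered 8 on that scale, against 3.31% of all genes. On the deposited scale 39.7% of all calls were higher, and after median centring 58.1%, so small changes of either sign depend on the scaling.

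Other targets of SRF were mostly lower as well, where 35.8% of all genes tested were called lower. Of 30 further cytoskeletal targets of SRF, 26 fell and the other 4 were not called by limma, with a median log2 change of -0.51 (the 4 were Enah, Itga1, Itga5 and Tes). Log2 changes were -1.09 for Lima1, an actin bundling LIM protein, -1.07 for the muscle filamin Flnc and -1.03 for the capping protein Capg. All 10 tested immediate early genes fell, with a median of -1.004, by -3.01 for Egr3, an early response transcription factor, -1.86 for its relative Egr1 and -1.54 for Fos. Acta1, the skeletal muscle actin, had a log2 change of -0.09 and did not pass the test (adjusted p = 0.459), and Actc1, the cardiac actin, was too dim.

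Markers of other cell types that contain contractile proteins or that changed in the same arrays were measured beside these genes. Of all genes tested, 35.8% were called lower and 23.6% higher. All 12 fibroblast and myofibroblast markers fell (11 after median centring, where Postn was not called), with a median log2 change of -1.19; their summed intensity was 35632 to 37297 in treated arrays and 58252 to 59128 in control arrays. The matrix genes Tnc, Lum and Dpt had log2 changes of -1.66, -1.47 and -1.38. Markers of vascular mural cells, the pericytes and smooth muscle cells of vessels, divided: of 9 tested, 4 fell and 3 rose, with a median log2 change of 0.05 (0.17 after median centring). With 44.4% lower and 33.3% higher, these counts were not far from the shares of all genes. The sum of the mural markers was 2575 to 2633 in treated arrays and 3852 to 3950 in control arrays. Most of it came from Pdgfrb, at a mean of 1491 in treated cells and 2740 in control cells. Log2 changes were -1.10 for Mcam, -1.02 for the potassium channel subunit Abcc9, -0.88 for the receptor Pdgfrb and -0.68 for Itga8. Notch3, Cspg4 and Higd1b rose by 0.85, 0.38 and 0.50. The mural markers Rgs5 and Heyl, at mean intensities of 34.8 and 45.0 in treated cells and 34.4 and 43.9 in control cells, were not called. Of 10 skeletal muscle markers 9 were too dim to test, and Ckm rose by 0.37 with overlapping arrays.

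All 11 tested macrophage markers fell, where 35.8% of all genes tested were called lower. The median log2 change of the 11 was -1.59, with sums of 4390 to 4808 in treated arrays and 13076 to 14331 in control arrays. C1qa, Mrc1 and C1qb had log2 changes of -1.99, -1.80 and -1.76. Of 8 endothelial markers 5 were too dim, among them Pecam1 at 13.2 in treated cells and 11.9 in control cells. Flt1 and Tek had log2 changes of -1.57 and -1.15, and Sox18 rose by 0.46. Fat cell markers summed to 79741 to 80870 in treated arrays and 79593 to 80901 in control arrays, which overlap. Most of this sum comes from very bright probe sets, and that of Fabp4 was the brightest on 4 of the 6 arrays, so the overlap of the sums says little about smaller changes. Of the 9 tested, 4 fell and 2 rose (44.4% and 22.2%, near the shares of all genes), and 4 fell and 5 rose after median centring. Log2 changes were -0.36 for Pparg, -0.26 for Slc2a4 and 0.28 for Cidec. The part of fibroblasts, mural cells or macrophages in the changes of the cytoskeletal genes was not tested.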

How the data were processed

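Total RNA of 3 rosiglitazone and 3 control samples was hybridised to Affymetrix mouse arrays, with biotin-labelled cRNA per the labels' protocols. The deposited values are probe set intensities on a linear scale, with similar array medians; the sources used here do not name the summary method. Of 45101 probe sets, 34945 had 1 gene symbol in the platform annotation, 932 had several and 9160 were not listed. Probe sets with several symbols and 64 array control probe sets were left out of the tests. Intensities under 16 were set to 16 and log2 was taken. Probe sets in the lowest 40% by mean intensity (under 27.3) were left out, and the brightest probe set stood for each gene. R 4.3.3 and limma 3.58.1 (lmFit, eBayes with a trend) compared the groups, with Benjamini-Hochberg adjustment over 12952 genes and a threshold of 0.05; the procedure was tested on simulated data. Gene pairs were compared by exact permutation of their log2 ratios over the 6 arrays. The number of arrays limits the precision.

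The genes and lists were chosen with earlier results of these data known. All 37 genes were named whatever their values, and of each other list up to 3 called genes with the largest change, or up to 2 bright genes where fewer than 2 were called; Cidea served as a check of the treatment. Other genes named to identify a small count (4 or fewer), among them Itga8, Notch3, Cspg4 and Higd1b, were chosen after their values were seen. Alternatives were quantile normalization, median centring, other floors and filters, other probe set rules, eBayes settings, a replicate block and leaving out each array; including the array control probe sets and leaving out Cnn1 and Smtn were chosen after seeing the data. A further list of genes is not reported here.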

Additional observations from a re-analysis of the deposited data

How the results depend on the processing

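The number of smooth muscle genes that fell was 7 to 10 (of 11, or of the 8 tested with the lowest 60% left out, where 7 fell), of general actomyosin genes 11 to 13 of 13 and of adhesion and LIM genes 5 to 6 of 7 over 18 alternatives that used the brightest probe set or the mean of probe sets. With the next brightest probe set, which fewer genes have, 2 of 2 smooth muscle genes and 5 of 6 general genes fell, while Vcl (0.058), Tln1 (0.057), Srf (0.031) and Mrtfb (0.12) turned to higher values that were not called; the cause was not tested. Counting Tpm1 and Cald1 with the smooth muscle genes gave 12 of 13 lower, and leaving out Cnn1 and Smtn gave 8 of 9. Median centring turned the median change of all genes to 0.071. With a floor of 64, Cnn1, Lmod1 and Smtn gave no value because all their arrays were at the floor. The treated and control samples share replicate numbers, but same-numbered samples did not deviate together (correlations of -0.02, -0.02 and 0.06). The main fit did not pair them, and the correlations cannot tell whether the numbers mark a shared culture or batch. A fit with the replicate block called 7693 genes, with 10, 12 and 6 lower in the 3 groups of genes named above, and ended the calls of Des (adjusted p = 0.0502) and Srf (adjusted p = 0.052, limma). Dim genes such as Cnn1, Smtn, Lmod1 and Myocd lie near background, which limits what can be read from the size of their changes.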
